A study of Ovis aries with 48 samples.

Results

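The constitutively detected snoRNAs of sheep adipose tissue are 123 of the 694 snoRNAs listed in 2 deposited tables, and they were chosen by measured values: each had at least 1 read in every one of the 48 libraries. A further 184 snoRNAs had no read in any library, and 387 were detected in some libraries or were left out by name. Of the 6 left out by name, 3 had reads in all 48 libraries. Because presence in every library was the criterion, presence itself is not a result here. The values below describe which of the 123 dominate, how far they vary and with what.

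The libraries came from female sheep in 2 cohorts. In the T cohort, subcutaneous, visceral, epicardial and perirenal fat was taken from 4 control sheep and from 4 sheep whose mothers had received 100 mg testosterone propionate (prenatal T) in corn oil, injected into muscle 2 times a week from day 30 to day 90 of gestation. In the BPA cohort, subcutaneous and visceral fat was taken from 4 sheep of mothers given bisphenol A (BPA, a plasticiser with estrogenic activity) at 0.5 mg per kg per day and from 4 sheep of mothers given corn oil alone, daily under the skin over the same days. Control mothers of the T cohort are labelled control with no vehicle named, and all animals were fed to prevent obesity. The labels do not state the sheep's age. There were 12 groups, each with 1 library from each of 4 sheep, and whole tissue was used, so that fewer cells of a type and less RNA per cell cannot be told apart.

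Small nucleolar RNAs guide the chemical modification of ribosomal and spliceosomal RNA, and a few act in the cutting of the ribosomal RNA precursor. Box C/D snoRNAs guide ribose methylation and box H/ACA snoRNAs guide pseudouridylation. Most vertebrate snoRNAs lie in introns and are released when the host transcript is spliced. Many of these hosts encode ribosomal proteins, translation factors or nucleolar proteins, and others are non-coding transcripts whose known product is the snoRNA. The tables name these genes by LOC identifier and do not give the box class.

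A library held 3201 to 35207 snoRNA reads (median 8129), out of 260804 to 1742991 reads in the 4 RNA classes counted. Library numbers in the labels fell into an early set (up to 48; 24 libraries) and a later set (from 81; 24 libraries), and the labels do not say what the numbers stand for. Epicardial controls (T cohort) and subcutaneous BPA sheep had later libraries only, subcutaneous and perirenal prenatal T sheep had early libraries only, and the other 8 groups held both. The visceral prenatal T library of sheep 255 stood apart. There the 3 leading snoRNAs, summed, held 7.28% of snoRNA reads (exact 95% interval 6.54 to 8.07), against at least 13.2% in the other 47 libraries. LOC114111819, in the RNA-binding protein gene RBMX, held 8.86% in that library (8.05 to 9.72) and 0.144% to 2.31% elsewhere. LOC114114248, in LOC101110918, held 7.23% (6.50 to 8.02) and 0.0117% to 1.21% elsewhere. These intervals cover counting error only. Of 4 microRNAs abundant in adipose tissue, 3 had values, and all 3 were present in every library (MIR103 at 568 to 3752 CPM, counts scaled to the microRNA total of a library, MIR107 at 164 to 815 and MIR148A at 1355 to 32320).

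The 123 snoRNAs held 85.9% ± 2.78 of the snoRNA reads of a library (SD, n = 48; range 76.1% to 90.2%). They made up 0.231% to 2.58% of all reads counted. In each of the 8 groups holding both sets, every later library lay above every early one in this share. In perirenal controls, for example, the early mean was 0.339% and the later library had 2.10%. The reads were concentrated in few of them: 20 snoRNAs gave 50.6% of all snoRNA reads on average, and the leading 10 gave 38.2%. At the other end, 12 of the 123 averaged under 0.1%. An effective number, the count of equally abundant snoRNAs that would give the same concentration, lay between 16.7 and 42.2 (median 27.6).

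LOC114117067 had the largest mean share of snoRNA reads, 8.66% (range 1.93% to 15.7%), and was the leading snoRNA in 29 libraries. It lies in the lncRNA gene LOC114116957, between ERN1 and TEX2. LOC114117661 followed with 8.15% (3.64% to 14.4%) and led in 17 libraries. It lies in another lncRNA gene, LOC105609544, together with LOC114117662 (4.18%) and LOC114117663 (2.95%). The 3 snoRNAs of this gene summed to 15.3% of snoRNA reads. In the remaining 2 libraries the leader was LOC114111819 (visceral prenatal T sheep 255) or LOC114117367, in the Rab3 regulator gene RAB3GAP2 (perirenal control sheep 132).

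The other leading snoRNAs lay mainly in genes of the translation machinery. LOC114115077, in RACK1, which encodes a protein of the small ribosomal subunit, had a mean share of 3.66% (1.23% to 7.93%). LOC114111353, in the translation initiation factor gene EIF4G1, had 3.48% (1.77% to 6.82%). Ribosomal protein genes contained LOC114115928 (RPL4; mean share 1.71%, 0.0480% to 4.78%) and LOC114114229 (RPL3; 1.70%, 0.563% to 3.69%). LOC114113382, in the nucleolin gene NCL, had 1.42% (0.126% to 3.91%). The ranges were unequal: the highest share of LOC114111353 was 3.85 times its lowest, and that of LOC114115928 was 99.5 times its lowest.

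Levels of different snoRNAs were also compared per length, as mean reads per 100 annotated bases per 10000 snoRNA reads. Whether reads rise with the length of an RNA in these small RNA libraries was not tested. On this scale LOC114117067 (70 bases) stood at 1238, LOC114117661 (92 bases) at 886 and LOC114115077 (68 bases) at 539. Their order at the top was thus the same as by share for the first 2, and LOC114115077 came ahead of LOC114117662 (454). Annotated lengths of the 115 snoRNAs found in RefSeq ARS-UI_Ramb_v3.0 ran from 62 to 243 bases (median 88). The 67 of at most 100 bases gave 71.1% of snoRNA reads. Their median level per length was 79.6, against 13 for the 39 with more than 100 and under 200 bases. Dividing by length itself lowers the longer ones, and the medians of mean shares were 0.633% and 0.173%. The part of the small RNA kit in this difference was not tested.

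**Figure D1:**
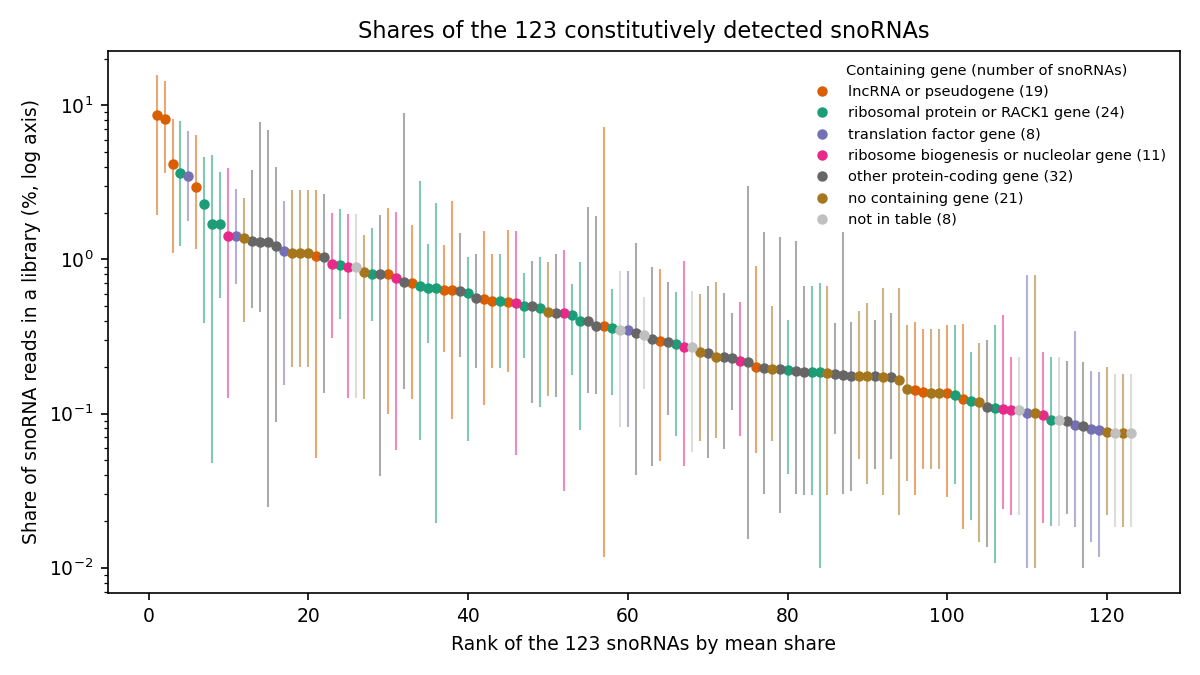
Shares of the 123 snoRNAs, ranked by their mean share of snoRNA reads over the 48 libraries (x axis: rank; y axis: percent of the snoRNA reads of a library, log axis). Points are means, lines run from the lowest to the highest library, and colours give the kind of gene that contains the snoRNA; means fall from 8.66% to 0.0743%.

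By position in the RefSeq table, with strand not compared, 24 of the 123 lay in ribosomal protein genes or RACK1 and together gave 17.7% of snoRNA reads. Another 11 lay in genes of ribosome biogenesis or nucleolar proteins (5.78%) and 8 in translation factor genes (6.73%). LncRNA genes or pseudogenes contained 19, which gave 30.8%, the largest summed share of these kinds. The 32 in other protein-coding genes gave 14.4%, and 21 with no containing gene gave 8.30%. The remaining 8 were not matched (2.18%). Among the 387 other detected snoRNAs, 209 lay in other protein-coding genes and 28 in ribosomal protein genes or RACK1. The kinds were assigned after the names had been seen, so these counts are a description. Some genes contained several of the 123: TEX14 contained 7 (summed share 2.84%), LOC114110053 contained 5, and NOP56, which encodes a core protein of box C/D particles, contained 4.

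Several of the 123 entries may repeat the same reads. There were 28 whose reads lay within 5% of those of another entry over the libraries, forming 12 groups of near-equal counts, and 5 pairs had identical reads in all 48 libraries. LOC114117650 in NOP56 and the unmatched LOC114117651 are such a pair, as are LOC114109176 and LOC114109177. Reads of the leading snoRNAs were also counted in the lncRNA class. The lncRNA LOC105609544 had 317 to 3626 reads per library (median 1103), and its 3 snoRNAs summed to 317 to 3622 (median 1102). The lncRNA LOC114116957 had 88 to 3333 reads, the range of LOC114117067. The counts of these 2 lncRNAs thus add almost no reads to those of the snoRNAs they contain. Others held more: the lncRNA LOC101116687 had a median of 90.5 reads, against 37 for the snoRNA in it.

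At the edge of the criterion the counts were small. LOC114114278, LOC114118589 and LOC114110708, the 3 of the 123 with the lowest mean share (0.0753%, 0.0753% and 0.0743%), had a lowest count of 1 read and a median of 5.5. LOC114114278 and LOC114118589 are another identical pair. Altogether 26 snoRNAs had a lowest count of 1 read, and 100 fell under 10 reads in some library. Just outside lay 37 snoRNAs with no read in exactly 1 library. The most abundant was LOC114115089, in the ribosome biogenesis gene PPAN, with a mean share of 0.291% and a median of 18.5 reads. It had no read in the perirenal prenatal T library of sheep 185, where 0 counts allow a share of up to 0.0869%. LOC114117376 (mean share 0.205%) had no read in the visceral BPA library of sheep 910, which allows up to 0.0349%. LOC114116498, in RPS20, had 0.187% and was at 0 in the same perirenal library as LOC114115089. That library held 3454 snoRNA reads, near the lowest of the 48.

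Within a group of 4 libraries, the SD of log2(value + 1) had a median of 0.61 over the 123 snoRNAs and ran from 0.28 to 1.98 (36 degrees of freedom). The smallest belonged to LOC114117661 (0.28), LOC114111353 (0.31) and LOC114114261, in the ubiquitin ligase gene RNF149 (0.35). The largest belonged to LOC114115928 in RPL4 (1.98), LOC114110194 in LOC114110053 (1.80) and LOC114118129, in the splicing factor gene SF3B3 (1.6). Counting error at the median read number would alone give a median SD of 0.29. When libraries were also separated by set, the median SD was 0.50 (28 degrees of freedom), and for 14 snoRNAs it fell below 50% of the first value. For LOC114115928 it went from 1.98 to 0.49, for LOC114110194 from 1.80 to 0.49 and for LOC114113382 in NCL from 1.55 to 0.44.

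The library set went with the largest differences measured in the 123 snoRNAs. LOC114115928, in RPL4, held a median of 0.217% of snoRNA reads in the 19 early libraries of the T cohort (0.0480% to 0.413%) and 3.09% in the 13 later ones (1.96% to 3.86%). In the BPA cohort its shares were 0.0942%, 0.181% and 0.197% (lowest, median, highest of 5 early libraries) and 2.25%, 3.65% and 4.78% (11 later libraries). The sets did not overlap in either cohort. The difference, with the group in the fit, was 4.52 log2 units (SE 0.26, limma adjusted p = 1.84e-16) in the T cohort. It was 4.47 (SE 0.26, adjusted p = 3.20e-13) in the other cohort.

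LOC114113382, in the nucleolin gene NCL, showed the same separation. Its share was 0.126% to 0.376% in early and 1.6% to 3.91% in later libraries of the T cohort, and 0.226% to 0.445% against 1.36% to 3.59% in the BPA cohort. It was higher in the later set by 3.67 log2 units (SE 0.22, limma adjusted p = 3.73e-16) and by 3.16 (SE 0.28, adjusted p = 6.30e-10). Other snoRNAs named for the smallest adjusted p were LOC114110194 (4.08 and 4.07 log2 units in the T and BPA cohorts) and LOC114118129 in SF3B3 (3.55 and 3.71). LOC114117064, in the ion channel gene TRPV2, had 2.99 and 3.33. On the values tested, the sets did not overlap for 10 of the 123 in the T cohort, beside 9.47% of the 169 snoRNAs tested. In the BPA cohort they did not overlap for 18, beside 14.7% of the 204 tested. The counts among the 123 on those values were thus near the background. On shares of snoRNA reads, the scale of the ranges above, the sets did not overlap for 12 (T cohort) and 35 (BPA cohort) of the 123. The background was not counted on that scale.

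**Figure D2:**
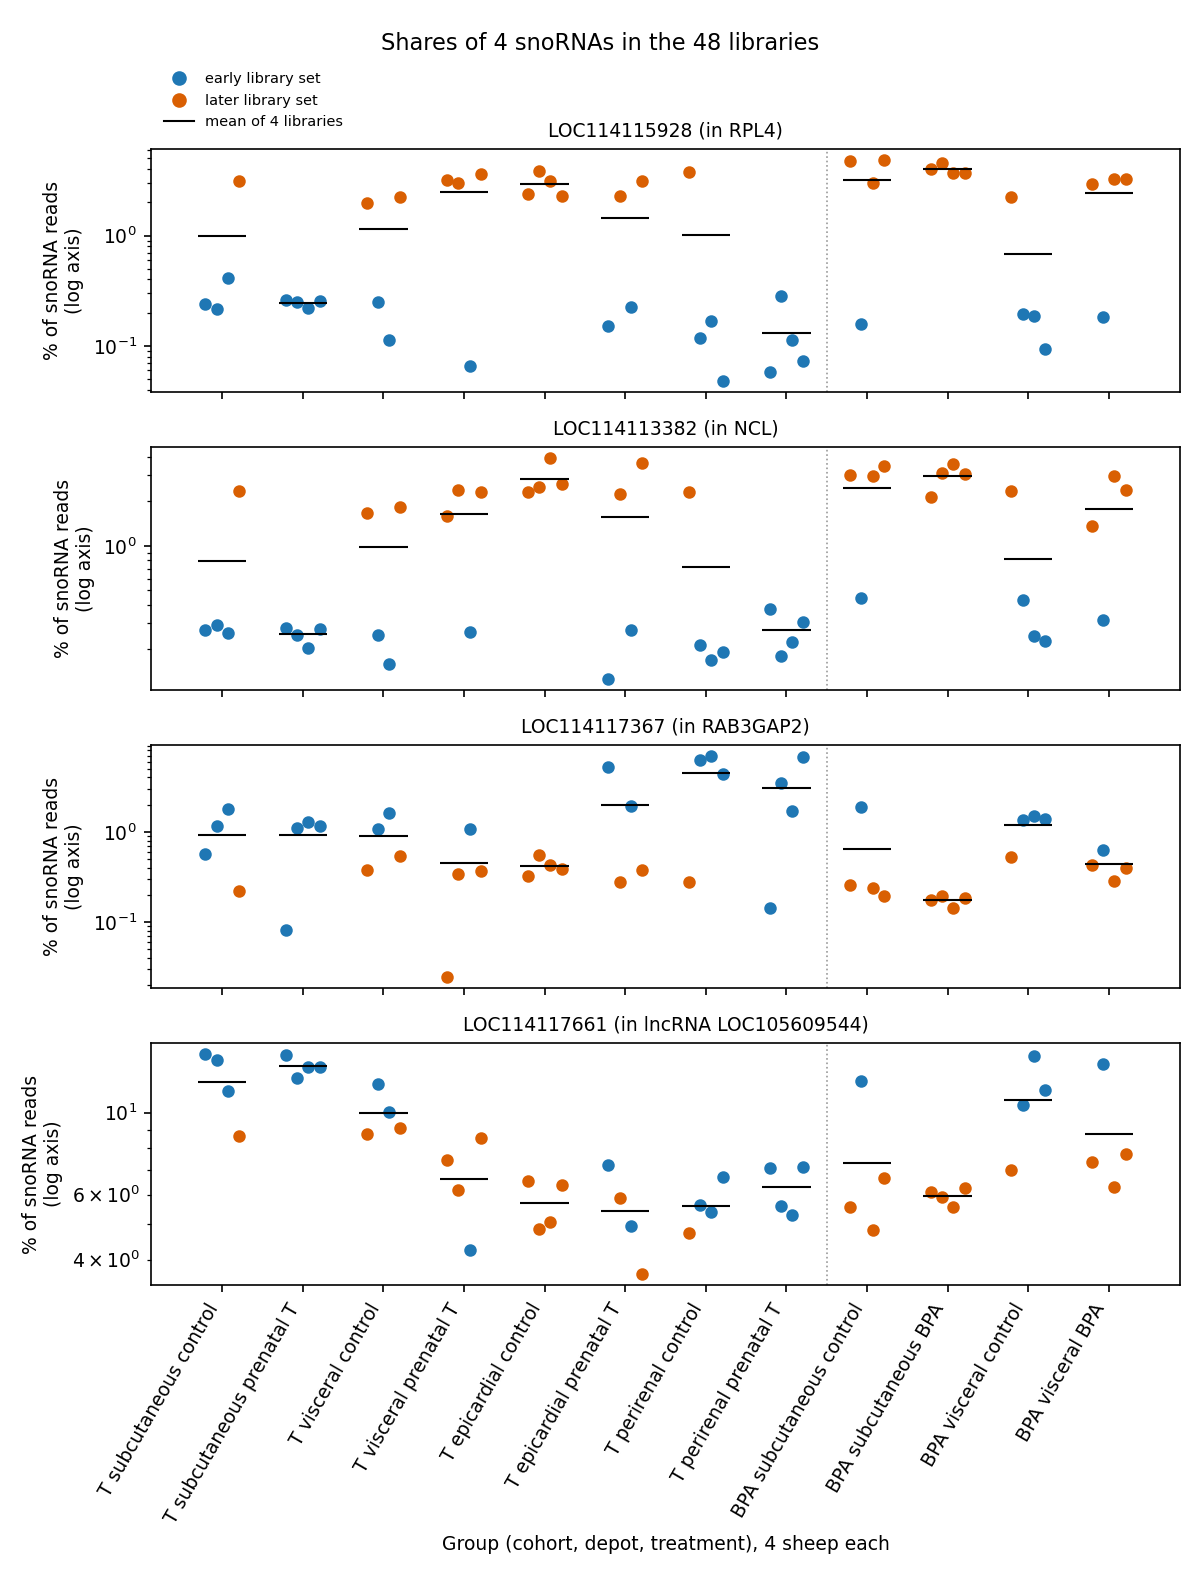
Share of snoRNA reads (percent, log axis) of LOC114115928, LOC114113382, LOC114117367 and LOC114117661 in every library, by group (x axis; 4 sheep each), with blue for early and orange for later libraries and a line at the group mean. The later libraries lie above all early ones for LOC114115928 (at least 1.96% against at most 0.413%) and LOC114113382, and mostly below them for LOC114117367.

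In the T cohort 53 of the 123 were called (adjusted p under 0.05), 31 higher and 22 lower in the later set, beside 43.8% of the 169 snoRNAs tested. In the BPA cohort 46 were called, 27 higher and 19 lower, beside 32.8% of the 204 tested. The shares among the 123 were thus near the background. The median difference was -0.01 (T cohort) and -0.18 (BPA cohort), against -0.01 and 0.12 over all snoRNAs tested. Different sheep and libraries made up the cohorts. Across the 123 the 2 sets of differences correlated with r = 0.92 and rho = 0.84, and 21 differed in sign. These points share libraries within each cohort. Called in both cohorts were 35, which is 66.0% of the calls of the T cohort and 76.1% of those of the BPA cohort, with 25 higher, 10 lower and 0 in opposite directions. The 39 other snoRNAs tested in both cohorts had r = 0.91.

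The snoRNAs that were lower in the later set had smaller differences. LOC114117367, in RAB3GAP2, fell by 2.34 log2 units (T cohort) and by 1.39 (BPA cohort). LOC114110702, in LOC114110614, had -1.98 and -1.10. These were picked after their values were seen. LOC114117367 held 0.0822% to 6.92% of snoRNA reads in early and 0.0248% to 0.551% in later libraries of the T cohort, which overlap. In the BPA cohort the sets did not overlap, with 0.634% to 1.90% against 0.142% to 0.524%.

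The direction of the lower calls depended on the scale. The authors' scaling centres the snoRNAs of a depot, and on reads divided by the library total of all 4 RNA classes (the all-class scale) the median difference of the 123 was 0.94 (T cohort) and 0.59 (BPA cohort). All 31 and all 27 higher calls were also called higher there, which the upward shift of the 123 on that scale favours. Of the 22 lower calls of the T cohort, 10 remained lower and 3 of these were called, and of the 19 in the BPA cohort 14 remained lower, 1 of them called. Among those called lower on that scale in the T cohort were LOC114117367 (-1.30) and LOC114110702 (-0.94). On that scale 86 of the 123 were called in the T cohort, 83 higher and 3 lower, and 43 in the BPA cohort, 42 higher and 1 lower. With edgeR on recovered reads the split was 22 higher and 39 lower, and 22 higher and 53 lower.

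**Figure D3:**
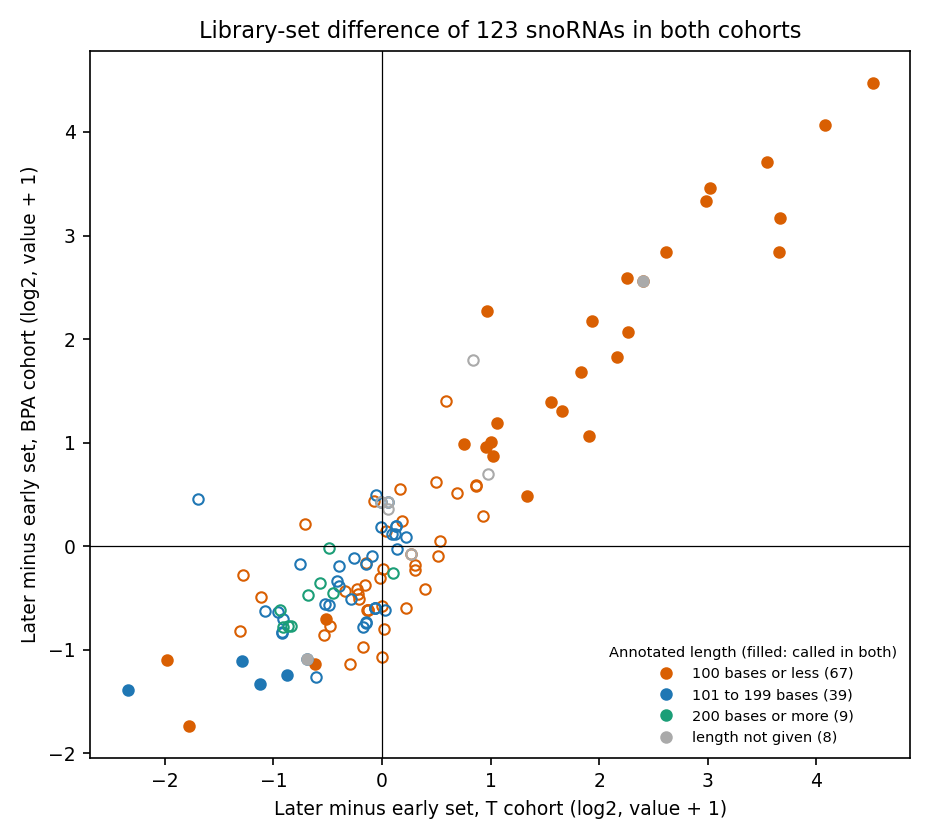
Difference between later and early libraries (log2 of value + 1) of each of the 123 snoRNAs, for the T cohort (x axis) and the BPA cohort (y axis), coloured by annotated length, with filled points for the 35 called in both. Points follow the diagonal, and those above 1.5 in both cohorts with a known length are 100 bases or shorter.

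The differences also went with the annotated length. Of the 67 snoRNAs of at most 100 bases, 29 were higher and 7 lower in the later set of the T cohort, and 25 and 12 in the BPA cohort. Of the 39 with more than 100 and under 200 bases, 0 were higher and 9 lower in the T cohort, and 0 and 6 in the BPA cohort. Of the 9 with 200 bases or more, 0 were higher and 5 lower in the T cohort, and 0 were called in the BPA cohort. Higher calls with a known length measured 63 to 85 bases. These counts stand beside the 43.8% and 32.8% called over all snoRNAs, and calls by length were not counted among the others. Those with more than 100 and under 200 bases were less abundant (median of mean shares 0.173%, against 0.633% for at most 100 bases). The direction of the lower calls depended on the scale, as given above. The part of RNA size selection or of RNA quality in these differences was not tested.

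SnoRNAs of 1 containing gene had unequal differences. In NOP56, LOC114117650 had 2.40 and 2.57 and LOC114117669 had 2.17 and 1.83, while LOC114117648 had -0.22 and -0.46, neither called. The 5 snoRNAs of LOC114110053 ran from -0.06 to 4.08 (T cohort) and from -0.59 to 4.07 (BPA cohort). The 7 in TEX14 ran from -0.94 to -0.45 in the T cohort, with 4 called lower, and none was called in the BPA cohort. By kind of containing gene, those in ribosomal protein genes or RACK1 had 10 higher and 4 lower of 24 in the T cohort, and 7 and 4 in the BPA cohort. Those in ribosome biogenesis or nucleolar genes had 5 and 0 of 11, and 5 and 1. Those in translation factor genes had 0 and 1 of 8, and 0 and 3. LncRNA genes or pseudogenes gave 8 and 3 of 19, and 7 and 6, and other protein-coding genes gave 4 and 11 of 32, and 4 and 2. Those with no containing gene had 2 and 2 of 21 in both cohorts, and the unmatched 2 and 1 of 8. These counts stand beside the 43.8% and 32.8% called over all snoRNAs, and differences between the kinds were not tested.

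The leading snoRNAs moved less with the set. LOC114117067 was higher in the later set by 1.33 log2 units (limma adjusted p = 2.30e-07; T cohort) and by 0.48 (adjusted p = 0.0224; BPA cohort), and LOC114115077 by 1.56 and 1.39. LOC114117661 had 0.22 in the T cohort (adjusted p = 0.189) and was lower in the BPA cohort (-0.60, adjusted p = 0.00262). LOC114111353 had 0.00 and -0.58.

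Depots were compared in the control sheep of the T cohort (16 libraries), each depot against the mean of the other 3, on recovered reads rescaled to a common median ratio. In subcutaneous fat 9 of the 123 were called, 6 higher and 3 lower, beside 8.19% of the 171 snoRNAs tested. The leading of these was LOC114117661. Its rescaled reads were 1141, 1048, 905 and 812 in subcutaneous fat and 713, 803, 550 and 796 in visceral fat. They were 614, 423, 518 and 591 in epicardial fat and 416, 343, 322 and 455 in perirenal fat, each for sheep 098, 131, 132 and 201. Every subcutaneous library was thus above every library of the other depots. The means were 976.7 ± 146.3, 715.6 ± 117.7, 536.6 ± 85.9 and 383.8 ± 62.1 (SD, n = 4), in the order given. Subcutaneous fat was higher by 0.89 log2 units (SE 0.15, limma adjusted p = 0.00202) and by 0.90 with the library set as a term (adjusted p = 0.00465). Without sheep 131 the adjusted p was 0.0832, and on the all-class scale it was 0.305, with a difference of 0.94.

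The other higher snoRNAs of subcutaneous fat included LOC114117088, in the overlapping genes SRR and TSR1, the second of which acts in ribosome assembly. It had rescaled reads of 121.2 ± 30.6 there and means of 48.7 to 70.0 in the other depots (1.10 log2 units, SE 0.25, limma adjusted p = 0.0183). LOC114109253, in the splicing factor gene PRPF39, had 33.2 ± 13.9 and means of 9.67 to 19.7 elsewhere (1.23, SE 0.29, adjusted p = 0.0232). The 3 lower entries, LOC114109176, LOC114109177 and LOC114109179, have near-equal counts and stand for 1 series of values. LOC114109176 had 56.0 ± 20.4 in subcutaneous and means of 94.4 to 124.4 in the other depots (-1.03, SE 0.27, adjusted p = 0.0245). With the set as a term all 9 were called in the same direction, and on the all-class scale 0 were called, with all 9 in the same direction. As deposited 11 were called and with edgeR 8, all higher in both. Leaving out 1 sheep left 0 to 5 called (0 without sheep 131, 1 without sheep 098, 1 without sheep 132, 5 without sheep 201).

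In perirenal fat 13 were called, 4 higher and 9 lower, beside 8.77% of all tested. LOC114117661 was lower there by 0.91 log2 units (SE 0.15, limma adjusted p = 0.00314), which shares its libraries with the subcutaneous comparison. LOC114117663, of the same lncRNA gene, had 140.0 ± 25.4 against means of 223.6 to 356.6 (-1.01, SE 0.22, adjusted p = 0.0136). LOC114117662, the other snoRNA of this gene, had -0.24 and was not called. LOC114117362, with no containing gene, had 15.2 ± 5.11 in perirenal fat and 34.4 to 59.9 elsewhere (-1.44, SE 0.30, adjusted p = 0.0131). All perirenal values of LOC114117362, 7.85 to 19.2, lay below those of every other depot. LOC114114645, in the valine catabolism gene HIBADH, had 6.79 ± 3.98 and means of 13.3 to 17.2 elsewhere (-1.18, SE 0.31, adjusted p = 0.0381). LOC114114650, in LOC114114532, was also lower (-1.17, SE 0.30, adjusted p = 0.0381).

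The 9 lower calls of perirenal fat were also called with the set as a term and on the all-class scale. The 4 higher calls were not called under either. They were the near-equal LOC114110204, LOC114114221 and LOC114115929 (0.92, 0.90 and 0.90) and LOC114117130 in TEX14 (0.89). On the all-class scale the first 3 had 0.07, 0.06 and 0.06 and LOC114117130 had -0.03, and that scale gave 0 higher and 21 lower calls. In the 3 early perirenal controls snoRNAs made up 0.335% to 0.459% of all reads, against at least 0.770% in controls of the other depots. That scale thus favours lower calls in perirenal fat, so that the 9 were kept there adds little. With the sheep as a block 23 of the 123 were called, 12 higher and 11 lower. Leaving out sheep 131, 132 or 201 left 0, 1 and 3, and leaving out sheep 098, whose perirenal library was the only later one, gave 37. With edgeR the split was 10 higher and 4 lower, and as deposited it was 0 and 10.

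**Figure D4:**
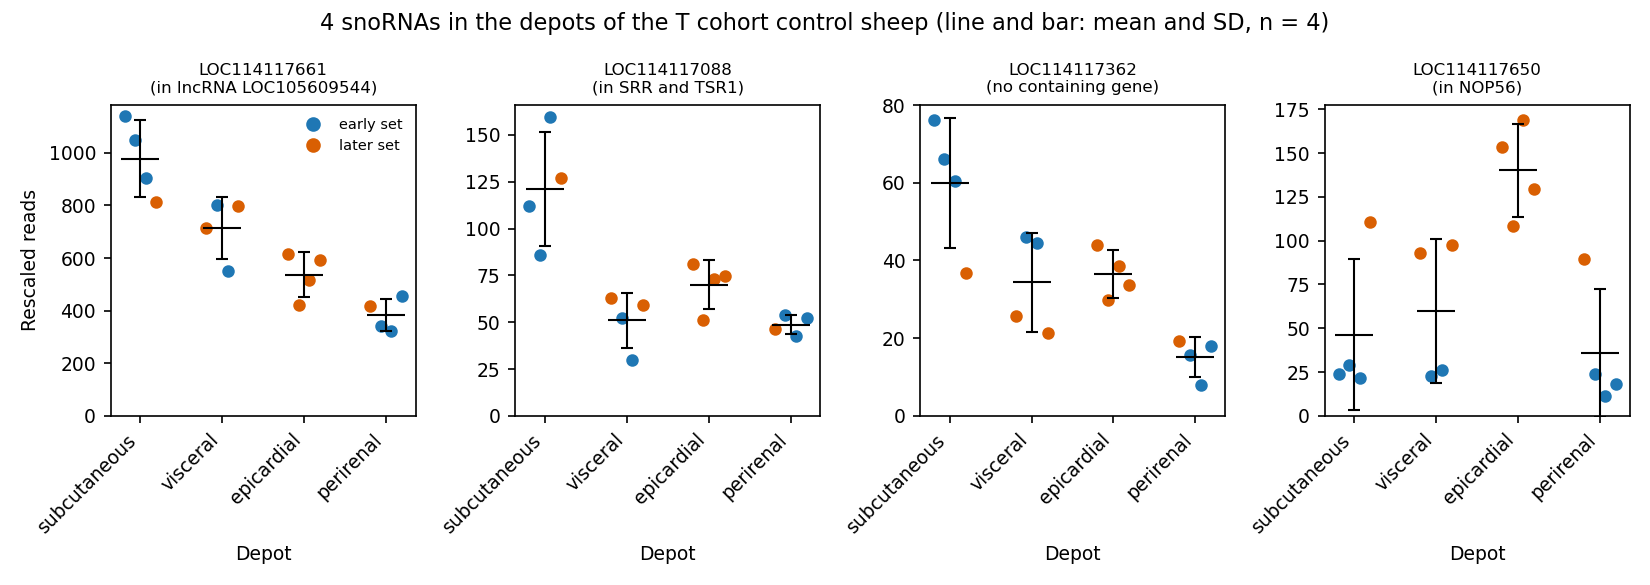
Rescaled reads (y axis) of LOC114117661, LOC114117088, LOC114117362 and LOC114117650 in the 4 depots of the T cohort control sheep (x axis), with a point per library, blue for early and orange for later, and lines and bars for the mean and SD (n = 4). LOC114117661 has its highest mean in subcutaneous fat (976.7) and its lowest in perirenal fat (383.8), while LOC114117650 is high in every later library of each depot.

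In epicardial fat 30 were called, 22 higher and 8 lower, beside 31.6% of all tested. No epicardial control library was early. LOC114117650, in NOP56, illustrates this: its rescaled reads were 108.6 to 169.0 in epicardial fat, and in the other depots 89.8 to 110.7 in later and 11.2 to 29.2 in early libraries. Its difference was 1.92 (SE 0.53, limma adjusted p = 0.0253). The smallest adjusted p belonged to LOC114109250, in the imprinted gene SNRPN, with 66.3, 62.5, 76.4 and 101.2 in epicardial fat and 20.2 to 62.2 elsewhere (1.02, SE 0.26, adjusted p = 0.0210). LOC114118106, in RPL13A, had 2.68 (SE 0.70, adjusted p = 0.0215), and LOC114116285, in LOC105611302, had 1.31 (SE 0.35, adjusted p = 0.0235).

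Of the 22 higher in epicardial fat, 19 (86.4%) were also called higher in the later set of the BPA cohort, which holds no epicardial library. They were 70.4% of the 27 higher calls of that set. Over all 163 snoRNAs tested in both comparisons the share was 88.2% of 34. Of the 8 lower in epicardial fat, 2 (25.0%) were also called lower in the later set (2 of its 19 lower calls), against 14.3% of 14 over all tested in both. With the set as a term 0 of the 30 were called, and LOC114109250 had 0.81 (adjusted p = 0.14). On the all-class scale 0 were called, with the direction of all 30 the same. Leaving out sheep 131, 132 or 201 left 1, 3 and 16, and with edgeR the split was 6 higher and 15 lower. The depot and the set can be separated here only through the other depots. Of 6 microRNAs of striated muscle 1 had values, MIR133. Epicardial controls had a CPM of 1295 to 6332 for it, and controls of the other 3 depots of 138 to 2573. Of 2 microRNAs of lymphocytes 1 had values, MIR150, at 6701 to 8144 and at 1277 to 6549. Their part in the result was not tested.

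Visceral fat gave 0 calls among the 123 with limma, beside 0% of all tested. An unadjusted p under 0.05 was found for 3, beside 8 of the 171 snoRNAs tested. With the set as a term 2 were called, both lower: LOC114118129 in SF3B3 (-1.06, adjusted p = 0.00551) and LOC114110199 in LOC114110053 (-1.44, adjusted p = 0.00398). Visceral and subcutaneous fat of the same controls also gave 0 calls with limma, beside 0% of the 178 snoRNAs tested (T cohort) and 0% of the 200 (BPA cohort). Unadjusted limma p-values under 0.05 numbered 14 and 36 among the 123, beside 18 of 178 and 60 of 200 over all tested. The smallest adjusted p of the 123 were 0.235 and 0.0706. With the set as a term 9 (T cohort) and 2 (BPA cohort) were called. In the BPA cohort 2 were called with the sheep as a block, namely LOC114110209 in TAF1D and LOC114110203 in LOC114110053, 2 with edgeR and 18 without sheep 908. The sets were uneven there: subcutaneous controls held 1 early and 3 later libraries, and visceral controls 3 early and 1 later. Sheep 908 gave the early subcutaneous library, so without it all subcutaneous control libraries were later. The part of the set in the 18 calls was not tested. On the values as deposited, which are scaled separately in each depot, 43 were called in the BPA cohort, 2 higher and 41 lower.

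Prenatal T and BPA were compared with their controls within each depot. No member of the 123 was called with limma in any of the 6 comparisons, beside 0% of all snoRNAs tested in each. In the order subcutaneous, visceral, epicardial and perirenal fat for prenatal T, then subcutaneous and visceral fat for BPA, the counts at an unadjusted p under 0.05 were 0, 8, 15, 2, 2 and 5. Over all snoRNAs tested they were 3 of 177, 20 of 172, 21 of 166, 3 of 147, 5 of 215 and 11 of 182. The smallest adjusted p of the 123 in these comparisons were 0.945, 0.282, 0.341, 0.742, 0.865 and 0.474. Those tested were 123, 118, 118, 114, 123 and 123. EdgeR gave 0 calls in all 6, and DESeq2 gave 1. The median absolute difference of the 123 was 0.27, 0.53, 0.44, 0.34, 0.32 and 0.44 log2 units, against 0.31, 0.56, 0.57, 0.36, 0.29 and 0.43 over all snoRNAs tested and 0.53 and 0.61 for the library set. Groups differed in their sets, as given above. A treatment by depot interaction was called for 0 of the 123 in either cohort with limma, beside 0% of 169 and of 204 tested. Of the 123, 9 and 1 had an unadjusted p under 0.05, beside 13 and 3 of all tested.

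The leading snoRNAs illustrate the spread within groups. LOC114117661 had deposited values of 802, 929, 1005 and 1100 in subcutaneous controls and 830, 926, 1074 and 1100 in prenatal T sheep. The groups overlapped throughout, with means of 958.8 ± 125.9 and 982.5 ± 127.1 and a difference of 0.04 (SE 0.15, limma adjusted p = 0.945). LOC114117067 had 733.9 ± 272.4 and 531.1 ± 85.6 in the same groups (-0.39, SE 0.28). In BPA sheep it had 1513 ± 194 in subcutaneous fat against 1460 ± 300 in controls (0.07, SE 0.29) and 965.3 ± 222.0 against 731.7 ± 174.1 in visceral fat (0.40, SE 0.26), with overlap in both.

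In visceral fat of prenatal T sheep 5 of the 118 members tested did not overlap with controls, beside 7.56% of the 172 snoRNAs tested, and LOC114117662 was among the 5. Its values were 265.8, 294.0, 317.0 and 486.1 in controls and 95.7, 151.8, 205.7 and 216.2 in prenatal T sheep. All control values were above all treated ones, but the difference (-1.05, SE 0.36) had a limma adjusted p of 0.282, and with DESeq2 it was -1.01 with an adjusted p of 0.0489. LOC114117663 of the same gene had -0.87 (SE 0.35, adjusted p = 0.360) and LOC114117661 had -0.39 (SE 0.23, adjusted p = 0.499). With the library set as a term, 2 others were called in visceral fat of prenatal T sheep, LOC114110700 in RPS2 (1.65, adjusted p = 0.0342) and LOC114114248 (2.73, adjusted p = 0.0402). LOC114114248 is among those that were high in the library of sheep 255.

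Other differences were picked here as those with the smallest p in a comparison after the values were seen, and none was called. In epicardial fat LOC114110701, in RPS2, had values of 0.885 to 12.1 in controls and 10.3 to 27.3 in prenatal T sheep (1.81, SE 0.58, limma adjusted p = 0.341). All 4 controls there were later libraries, while prenatal T sheep had 2 early and 2 later ones. LOC114110701 was also lower in the later set of the T cohort (-0.92, limma adjusted p = 0.0447), and the part of the set was not tested. In perirenal fat LOC114114645 in HIBADH had 1.88 to 9.84 and 6.18 to 18.3 (1.13, SE 0.51, adjusted p = 0.742). For BPA in visceral fat LOC114117367 in RAB3GAP2 had 40.4 to 110.1 in controls and 31.8 to 43.8 in treated sheep (-1.11, SE 0.41, adjusted p = 0.474). That comparison held 3 early controls and 1 early BPA library. Sheep 918 gave that early BPA library, so without it all BPA libraries of the comparison were later. LOC114115077 in RACK1 (1.40) and LOC114115928 in RPL4 (3.69) were then called, each with a limma adjusted p of 0.0276. Both were also higher in the later set of this cohort, and the part of the set in these calls was not tested.

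A few of the 123 share a gene with snoRNAs left out by name. LOC114115928 lies in RPL4 with the left-out LOC114115930, LOC114113389 (mean share 1.14%) in the elongation factor gene EEF1B2 with LOC114113393, and LOC114110209 in TAF1D with LOC114110211.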

How the data were processed

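Total RNA of 48 adipose samples was made into small RNA libraries, per the labels' protocols. The submitters' processing notes list cutadapt 3.2, STAR 2.6.0c and featureCounts 1.6.1, and no source used here names the genome build. The authors deposited a signal per feature, reads divided by a size factor, in 1 table per cohort and RNA class. Whole reads were recovered from 100% of values (tolerance 1e-05). The recovered factors are median-of-ratios factors set within the 8 libraries of a depot, so depots were compared on reads rescaled over the libraries in the fit; the files thus needed another scale than planned for depots.

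SnoRNAs with a mean of at least 5 were tested with limma 3.58.1 (R 4.3.3) on log2(value + 1), a scale that understates changes of low levels, with Benjamini-Hochberg adjustment over all snoRNAs tested. The count models edgeR 4.0.16 and DESeq2 1.42.0 were run on recovered reads. The 123 snoRNAs and the lists were chosen with earlier results of these data known. Those named are the 10 most abundant, up to 5 called with the smallest adjusted p per comparison, the extremes of share and of SD, and the 3 just outside. Others are named as picked after their values were seen. Some named snoRNAs are not reported here. Depots of a sheep are paired by the labels; deviations of 1 sheep's libraries correlated with a median r of 0.185 (T) and 0.261 (BPA), against -0.022 and -0.045 between sheep. Within groups, all 72 pairs of libraries differed by more than sampling noise (chi-square per degree of freedom 1.47 to 32.1). Genes and lengths are from RefSeq ARS-UI_Ramb_v3.0, matched by symbol, and no coordinates or sequences were used. Fits were also run on simulated counts with known changes and the same relative spread for all snoRNAs. The pairing of sheep was not simulated, nor was a set difference in the treatment and depot fits, so the simulation does not cover these.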

Additional observations from a re-analysis of the deposited data

Results flagged for a closer look

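A library was singled out when its gap to the nearest of the 4 in its group exceeded Dixon's 95% critical share of the group's range. Over 84 groups of values (7 measures in 12 groups) 5 were, and chance gives about 1 in 20. The share of all reads held by the 123 snoRNAs was 2.14% in visceral control sheep 902 of the BPA cohort (exact 95% interval 2.10 to 2.18), a later library, against 0.901% to 0.934% in the 3 early ones. It was 2.10% in perirenal control sheep 098 (2.05 to 2.16), also a later library, against 0.280% to 0.386% in the 3 early ones. LOC114117662 held 6.0% of snoRNA reads in subcutaneous control sheep 908 of the BPA cohort (5.58 to 6.44), an early library, against 2.46% to 2.90% in 3 later ones. These 3 libraries were each the only one of their set in the group. LOC114117067 held 6.76% in visceral control sheep 928 of the BPA cohort (6.10 to 7.47), itself early, against 10.7% to 11.4% in 2 early libraries and 1 later one. The effective number of snoRNAs was 28.6 in subcutaneous BPA sheep 977, against 29.8 to 29.9, all of the later set.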

How the results depend on the processing

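Counts of the 123 called are given for each change that moved them by over 1.5 times. With the library set as a term, prenatal T in visceral fat had 2, epicardial fat 0, visceral fat 2, and visceral against subcutaneous fat 9 (T cohort) and 2 (BPA cohort). Without the filter, subcutaneous, epicardial and perirenal fat had 1, 13 and 1. On the all-class scale they had 0, 0 and 21, and the set in the T cohort had 86. With a pseudocount of 0.5 perirenal fat had 7. DESeq2 gave 1 for prenatal T in visceral fat. With edgeR visceral against subcutaneous fat of the BPA cohort had 2 and its set 75. As deposited, visceral against subcutaneous fat of the BPA cohort had 43. With the sheep as a replicate block perirenal fat had 23 and visceral against subcutaneous fat of the BPA cohort 2; the block alone moved no other count by that much. Chosen after seeing the data were the block with the set term, which gave 17, 3 and 0 in subcutaneous, visceral and epicardial fat and 6 in visceral against subcutaneous fat of the T cohort, and the block with the all-class scale, which gave 28 for the set in the BPA cohort. Leaving out 1 sheep gave 0 to 5 in subcutaneous, 1 to 29 in epicardial and 0 to 37 in perirenal fat, 0 to 18 for visceral against subcutaneous fat and 0 to 2 for BPA in visceral fat of the BPA cohort, and 44 to 54 and 35 to 50 for the set. Causes were not tested. In 175 other cases the value moved less. The called snoRNAs with the smallest adjusted p, up to 5 per comparison, kept their direction in all 320 refits made of them and their call in 247, including all 140 for the set; 73 calls of depots were lost. The 198 snoRNAs detected in all 16 libraries of the BPA cohort, with none left out by name, held 94.9% of snoRNA reads, against 85.9% for the 123. Depth limits the less abundant: a median of 32 of the 123 had fewer than 10 reads in a library.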
